A study of Mus musculus with 9 samples.

Results

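The wild type main olfactory epithelium (MOE) of mouse was described here from its 3 RNA-seq libraries, of 9 in a series that also holds heterozygous and homozygous carriers of a knockout of TAAR enhancer 1, which lies between Taar1 and Taar2 in the cluster of trace amine-associated receptor (TAAR) genes. The 3 libraries were chosen by the genotype in their titles, and genotypes were not compared. They are numbered 1, 2 and 3 as in those titles. The mice were wild type littermates of the deletion line, carried none of its alleles, and were labelled C57BL/6 and postnatal day 14. A mixed strain background and an older age are given for these animals in the reporting summary of the study, and the conflict was not resolved. RNA came from the whole MOE with no sorting of cells, and the study counts its replicates as mice. All 24421 gene rows of the count table were used.

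The MOE lines the back of the nasal cavity. Its olfactory sensory neurons (OSNs) carry odorant receptors on their cilia and signal through a cyclic AMP cascade, and each mature neuron expresses a single receptor gene out of a very large family. Sustentacular cells support and detoxify the epithelium, globose and horizontal basal cells replace neurons throughout life, and Bowman's glands and neighbouring nasal glands coat the surface with mucus and secreted binding proteins. Whole tissue also brings connective tissue, vessels and the thin bone of the turbinates. In bulk tissue, fewer cells of a type and less RNA per cell cannot be told apart.

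Reads counted in genes numbered 24951344, 32631951 and 25736618 in libraries 1, 2 and 3, which was 57.6 to 58.7% of the reads the table accounts for. A further 17.8 to 19.2% aligned to more than 1 place and were not counted, so genes with near-identical copies are undercounted. Levels are given as CPM, the reads of a gene per 1000000 reads counted in genes of that library. At these depths 3 reads correspond to 0.0919 to 0.120 CPM, a limit that covers counting error only. No pair of libraries was a duplicate, since the chi-square over genes, divided by its degrees of freedom, was 4.47 to 9.28 where sampling noise alone gives about 1. Reads of Xist came to 1.17 to 1.76 CPM and those of the Y-linked gene Ddx3y to 73.1 to 77.1 CPM, the pattern of male tissue in all 3 libraries. Values are the mean ± SD of the 3 libraries (n = 3), and no test between groups was run. The SD measures the spread between these libraries only.

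The MOE expressed a broad set of genes. At least 1 read was found for 21189 gene rows, a mean of at least 1 CPM for 16156, of at least 10 CPM for 11614, of at least 100 CPM for 2702 and of at least 1000 CPM for 42. Of all counted reads, 50% fell in 1704 genes, and 10% of them in 66 genes. The 30 genes with the most reads took 6.63% ± 0.155 (SD, n = 3) of the reads. Protein-coding genes took 98.1% of the reads and long intergenic noncoding RNAs 0.511%, most of the latter from Malat1 (1578 CPM ± 185) and Neat1 (1214 CPM ± 79.9), a pair of nuclear RNAs. The 84 rows of cytosolic ribosomal protein genes held 0.487% ± 0.0140 of the reads, and the table has no row for a mitochondrial gene.

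The genes with the most reads came from the stroma, from secretory cells and from neurons. Col1a2 and Col1a1, the chains of type I collagen, led with 6044 CPM ± 402 and 4664 CPM ± 419, and Sparc, a collagen-binding matrix protein, had 2524 CPM ± 73.0. Bpifa1, a secreted protein of nasal glands and airway epithelium, had 3827 CPM ± 263, and the related Bpifb4 and Bpifb9b had 2527 CPM ± 219 and 2048 CPM ± 1740. Bpifb9b stood apart among the 30 leading genes: its 3 libraries gave 1334, 779 and 4032 CPM, a CV (the SD as a percent of the mean) of 85.0%. Omp, the olfactory marker protein of mature OSNs, was in sixth place with 3122 CPM ± 22.9. Cyp2a5 and Cyp2g1, cytochrome P450 enzymes of nasal tissue, had 3234 CPM ± 140 and 2280 CPM ± 59.0, and Cbr2, a carbonyl reductase, had 1603 CPM ± 104. Sec14l3, of a family of lipid-binding proteins, had 2631 CPM ± 96.4.

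**Figure D1:**
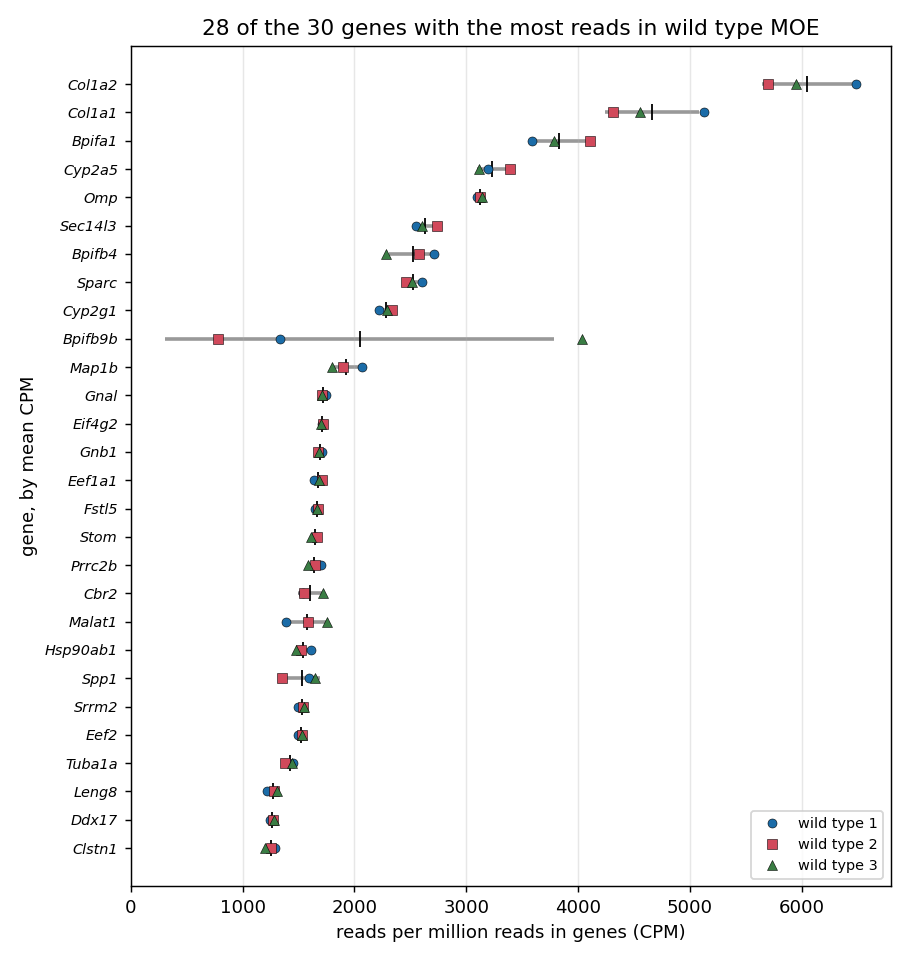
Of the 30 genes with the highest mean CPM, 28 are plotted, with CPM on a linear axis from 0; symbols are the 3 wild type libraries, vertical ticks the means and grey bars 1 SD to either side. Col1a2 leads at 6044 CPM, and Bpifb9b has the widest bar, from 779 CPM in library 2 to 4032 CPM in library 3.

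The other genes described among the leading 30 were mainly neuronal or general. Gnal and Gnb1, subunits of the olfactory G protein, had 1722 CPM ± 18.8 and 1689 CPM ± 18.3. Map1b, a microtubule protein of growing axons, had 1922 CPM ± 133 and Stom, a membrane protein, 1647 CPM ± 28.0. Tuba1a, a tubulin of neurons, had 1422 CPM ± 36.3, Fstl5 1662 CPM ± 14.3 and Clstn1 1251 CPM ± 46.4. Spp1, the bone and matrix protein osteopontin, had 1534 CPM ± 155. Others were factors of translation, protein folding and RNA processing that most cells use: Eif4g2 (1712 CPM), Eef1a1 (1678 CPM), Eef2 (1520 CPM), Hsp90ab1 (1536 CPM), Prrc2b (1643 CPM), Srrm2 (1528 CPM), Leng8 (1272 CPM) and Ddx17 (1265 CPM).

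Since long genes collect more reads, levels were also computed per length, as reads per kilobase of annotated exon rescaled to the same sum as CPM in each library. On this per-length scale Bpifa1 was first, at 9990 ± 695. Cyp2a5 had a per-length level of 6293 ± 299 and Omp of 5873 ± 24.2. Next came short genes that were lower in the order of CPM, with per-length levels of 5300 ± 236 for Scgb1c1, a secretoglobin, 5125 ± 440 for S100a5, a calcium-binding protein of OSNs, and 4581 ± 295 for Vmo1, a secreted protein. Cbr2, Cyp2g1 and Bpifb9b completed the leading 10, with per-length levels of 4872 ± 285, 4287 ± 109 and 3983 ± 3359. Mir682, in second place on this scale at 7534 ± 568, is an annotated hairpin of 96 bases on chromosome 13 with 179 CPM ± 14.7, and a per-length level over so short a row is not comparable with those of messenger RNAs. On the per-length scale 1299 genes made up 50% of the total.

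The markers of mature OSNs were among the most abundant genes of the tissue and close between libraries. Omp had 3098, 3127 and 3143 CPM in libraries 1, 2 and 3, Gnal, the olfactory G protein alpha subunit, 1743, 1713 and 1708 CPM, Cnga2, the principal subunit of the olfactory cyclic nucleotide-gated channel, 569, 589 and 591 CPM, and Adcy3, the adenylyl cyclase of olfactory cilia, 575, 547 and 500.5 CPM. All 4 therefore ranked among the leading 131 of the gene rows, and the label of the tissue held by each of them in each library. Adcy3 was the least even of the 4, with a CV of 6.95% against 0.732% for Omp. The list of 12 mature OSN genes summed to 8703, 8772 and 8692 CPM, a CV of 0.499%, and Omp made up 35.8% of it. The others were Stoml3, a membrane protein of cilia (783 CPM ± 5.59), Gng13, a G protein gamma subunit (199 CPM ± 15.0), the receptor transporters Rtp1 (594 CPM ± 21.8) and Rtp2 (344 CPM ± 10.5), the channel subunits Cnga4 (168 CPM ± 4.65) and Cngb1 (251 CPM ± 10.6), the calcium-activated chloride channel Ano2 (258 CPM ± 14.3) and the vesicular glutamate transporter Slc17a6 (157 CPM ± 0.924).

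Every step of the cyclic AMP cascade was represented. All 15 genes of the olfactory transduction list had at least 10 CPM, and together they held 7313 CPM ± 77.7. On the per-length scale the G protein subunits Gnb1, Gng13 and Gnal had 1596, 1037 and 622. Cnga2 had 760, Ric8b, an exchange factor of the G protein, 379, Adcy3 349 and Cnga4 255. The order depends on the length used. Gnal, with 11172 bases of annotated exon, ranked 132 among all genes on this scale. It ranked 68 when the longest transcript of each gene was taken as its length. The chloride side followed with per-length levels of 231 for Slc12a2, the transporter that loads OSNs with chloride, and 194 for Ano2. Cngb1 stood at a per-length level of 108. Genes that end the response had per-length levels of 159 for Pde4a and 54.4 for Pde1c, both phosphodiesterases, 125 for Arrb2, an arrestin, 55.2 for Slc24a4, a sodium and calcium exchanger, and 27.7 for the receptor kinase Grk3, listed as Adrbk2. Of the trafficking genes, Reep1, another protein known to help receptors to the surface, had 76.3 CPM ± 1.65, against 594 CPM for Rtp1.

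Promoters were read for 9 of the 12 mature OSN genes, and those of Omp, Gnal and Rtp1 are not analysed here. Cnga2 had a RefSeq promoter (GRCm38.p6) with a match to a word bound by the O/E (EBF) factors, which are known regulators of olfactory neuron genes. The 100 bases below lie on the plus strand at chrX:71991742-71991841, run 5′ to 3′, and have in capitals the word made of TCCC and GGGA with 3 bases between them, which begins 67 bases before the annotated start.
Cnga2: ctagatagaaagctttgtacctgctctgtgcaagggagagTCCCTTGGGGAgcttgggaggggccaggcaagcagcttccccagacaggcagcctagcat
This word, read on both strands of the 300 bases around a start, was in 1 of 14 promoters of the mature OSN list and in 0.831% of all 32851 promoters of the table. The word with a spacer of 2 bases was in 0 of the 14 and in 0.904% of all. A match is a description of the letters and not evidence of binding.

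The regulators known from receptor gene choice were also abundant, and all 11 on the list exceeded 10 CPM. Atf5, a factor of the unfolded protein response that is switched on when a receptor is made, had 1109, 1112 and 1097 CPM. The O/E factors Ebf1, Ebf2, Ebf3 and Ebf4 had 351 CPM ± 8.40, 652.5 CPM ± 18.7, 646 CPM ± 7.15 and 421 CPM ± 8.94. Lhx2, the homeodomain factor of OSNs, had 364, 359.99 and 338 CPM, its cofactor Ldb1 258 CPM ± 8.72, and Emx2, another homeodomain factor, 106.2 CPM ± 8.03. Kdm1a, the demethylase LSD1, had 149 CPM ± 4.86, Eif2ak3, the kinase PERK, 64.5 CPM ± 4.57, and Lbr, a nuclear envelope protein that is low in mature OSNs, 49.9 CPM ± 1.24.

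Cells at earlier steps of neurogenesis were represented as well. The 8 genes of immature OSNs, which extend axons and have not yet made contacts in the bulb, summed to 2285 CPM ± 22.7. On the per-length scale Gap43, a growth cone protein, led them at 721, with Dpysl3 at 494, Stmn2 at 335 and Stmn4 at 333. The 10 genes of globose basal cells and neuronal progenitors summed to 1089 CPM ± 35.5. Among them the differentiation factors Hes6, Insm1 and Neurod1 had per-length levels of 296, 236 and 85.7, and Tex15 of 101. The proneural factor Neurog1 had 20.8 CPM ± 0.540, and the proliferation genes Mki67 and Top2a had 204 CPM ± 13.1 and 151 CPM ± 3.71. The list of 6 horizontal basal cell genes, the reserve stem cells, summed to 196, 184 and 227 CPM. Its keratins Krt5, Krt15 and Krt14 had per-length levels of 121, 78.6 and 61.4, and Itgb4, an integrin of the basal attachment, of 19.4. Krt15 alone ranged from 18.3 CPM in library 2 to 53.9 CPM in library 3, while Trp63, the factor that maintains these cells, stayed at 27.1 to 30.4 CPM.

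Odorant receptor (OR) genes were nearly all detected and each took few reads. Of 1125 OR rows, taken as all symbols that join Olfr and a number, 1101 had a read and 1074 had at least 10 reads over the 3 libraries, while 24 had none. Together they took 3081, 3213 and 3158 CPM, or 0.315% ± 0.00667 (SD, n = 3) of all counted reads. This summed level of the whole family was close to the 3122 CPM of Omp alone. On the per-length scale the family summed to 4327 ± 86.6, against 5873 for Omp. The median OR gene had 1.97 CPM, and the tenth and ninetieth percentiles were 0.405 and 5.63 CPM, a range of 13.9-fold. Only 24 OR genes reached a mean of 10 CPM. The reads were spread over the family, since 201 genes held 50% of them and 696 held 90%.

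The leading OR gene was Olfr536, on chromosome 7, with 113, 130.4 and 135 CPM, a mean of 126 CPM ± 11.8. Next was Olfr1507, the receptor MOR28 of chromosome 14, with 37.3, 47.0 and 57.9 CPM, a CV of 21.8%. The expressed pseudogene Olfr1372-ps1 had 29.9 CPM ± 3.60, Olfr15 26.6 CPM ± 1.15 and Olfr727 22.9 CPM ± 4.38. Olfr533, Olfr166, Olfr309, Olfr741 and Olfr1213 completed the leading 10, between 16.6 and 20.7 CPM. These 10 genes held 10.9% ± 0.918 of OR reads and the leading 100 held 34.4% ± 1.42. Library 1 was the lowest of the 3 for Olfr536, Olfr1507, Olfr1372-ps1 and Olfr727, and library 2 for Olfr15. The protein-coding OR genes, 1094 of the 1114 with an annotation, held 97.8% of OR reads with a median of 1.99 CPM, and the other 20 had a median of 0.611 CPM, 17 of them with at least 10 reads.

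**Figure D2:**
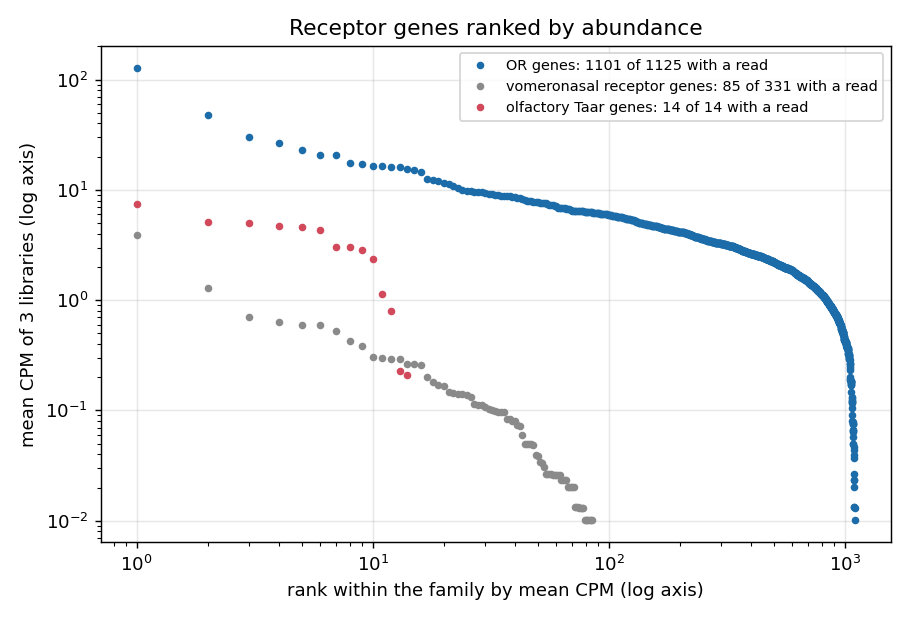
Mean CPM of each receptor gene against its rank within its family, both on log axes, for OR genes, vomeronasal receptor genes and the 14 olfactory Taar genes; genes with no read are left out. The OR curve declines from Olfr536 at 126 CPM on the left through 1.97 CPM at the median gene, and the vomeronasal genes lie below 4 CPM throughout.

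Both classes of OR were expressed. Class I receptors, which resemble those of fish and in mouse form a single cluster on chromosome 7, were taken as its 124 OR genes between 102476579 and 105369355 (GRCm38). They made up 11.0% of the OR rows and 10.6% ± 0.814 of OR reads, with 342, 355 and 305 CPM, and their median gene had 2.32 CPM against 1.95 CPM for class II. By chromosome, 20.98% of OR genes and 26.2% ± 0.408 of OR reads were on chromosome 7, and 25.5% of genes and 19.5% ± 0.152 of reads on chromosome 2, which has the most OR genes. Chromosome 14 held 3.47% of the genes and 7.46% ± 0.735 of the reads, and chromosome 9 held 135 genes and 7.78% ± 0.262 of the reads.

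OR genes were also summed by genomic cluster, with a gap of more than 1 Mb between neighbours ending a cluster. The cluster of 222 genes on chromosome 2 took 502, 532 and 511 CPM, the most of any, and the 19 genes that include Olfr536 took 207, 231 and 236 CPM, or 11.8 CPM per gene. Olfr536 alone had 126 of these CPM, and the median gene of the cluster had 3.68 CPM. The 36 genes of chromosome 14 between 49894258 and 52495749 (GRCm38), which include Olfr1507, Olfr727 and Olfr741, took 191, 217 and 240.4 CPM, or 6.01 CPM per gene. Library 1 had the lowest level of the 3 for 19 of these 36 genes, or 52.8%, and for 35.1% of the other 1036 annotated OR genes with at least 10 reads. Their sum had a CV of 11.4%. The 5 genes around Olfr1321 on chromosome X were less even, at 19.6, 25.4 and 29.8 CPM. The 36 genes of the chromosome 9 cluster with Olfr24 were the most even of the clusters with 20 or more genes, at 69.1 to 69.3 CPM. That range is narrower than the counting error.

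OR promoters were rich in A and T. Of the 938 OR genes with a RefSeq promoter (GRCm38.p6, from 250 bases before to 50 after the start, 942 promoters), 40.9% held TAATTA or TAATGA on either strand, words of the kind that homeodomain factors such as LHX2 bind, against 13.9% of all 32851 promoters. The median promoter was 65% A and T among OR genes and 47.3% among all. Among promoters of 60 to 65% A and T the share was 35.8% for OR genes and 32.4% for other genes, and among those of 65 to 70% it was 49.1% and 44.6%. The words were in 36.3% of the promoters of the OR genes in the upper tercile by CPM, 44.2% of the middle tercile and 42.1% of the lower tercile. The median promoters of these terciles were 63.3, 65 and 66% A and T. The words were in 34.6% of class I and 41.8% of class II promoters, with medians of 62.7 and 65% A and T. These shares were not matched for A and T. The O/E words with spacers of 2 and 3 bases were in 0.531% and 0.637% of OR promoters.

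TAARs, a second and much smaller family of olfactory receptors that detect volatile amines, took 44.8, 44.8 and 45.0 CPM in all, a mean of 44.9 CPM ± 0.113 for the 14 olfactory members. These sums rest on 1119, 1461 and 1158 reads. Their SD is smaller than the counting error and does not show an unusually constant family. The leading member was Taar6 with 8.02, 6.86 and 7.34 CPM. The 5 Taar7 genes lay close together, at 5.14 CPM ± 0.284 for Taar7d, 5.04 CPM ± 0.587 for Taar7b, 4.74 CPM ± 0.175 for Taar7e, 4.59 CPM ± 0.301 for Taar7a and 4.34 CPM ± 0.143 for Taar7f, differences that were mostly within the spread of the libraries. Reads of these near-identical genes could be split or lost in counting, so their order is uncertain. Taar5, Taar2 and Taar9 had 3.04 CPM ± 0.468, 3.01 CPM ± 0.537 and 2.82 CPM ± 0.229, Taar4 had 2.37 CPM ± 0.337 and Taar3 1.15 CPM ± 0.294. The Taar8 genes were lowest, with 0.797 CPM ± 0.152 for Taar8b, 0.229 CPM ± 0.134 for Taar8c and 0.209 CPM ± 0.0650 for Taar8a, the last on 5 to 7 reads a library. Taar1, which is expressed mainly outside the nose, had 0 reads in each library. On the per-length scale the median olfactory Taar gene had 11.98 and the median OR gene 2.63, against 3.02 and 1.97 in CPM. The wider gap per length depends on the annotated exon lengths. These were 1014 bases for Taar5 and 1077 for Taar7a, against 4284 for Olfr536 and 2877 for Olfr1507.

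Receptors of other chemosensory systems were low. Of 331 vomeronasal receptor genes, which belong to a separate organ of the nasal septum, 85 had any read and 27 had at least 10, with 14.5, 15.0 and 16.0 CPM in all. Vmn2r29 (3.91 CPM ± 0.403) and Vmn2r65 (1.28 CPM ± 0.513) were the only members at a mean of 1 CPM, followed by Vmn2r2 at 0.704 CPM ± 0.239, Vmn2r57 at 0.633 CPM ± 0.131 and Vmn2r79 at 0.321, 0.858 and 0.622 CPM. Trpc2, the channel of vomeronasal neurons, was listed at 0, as was the row Xntrpc that overlaps it, so this marker was not measured. Formyl peptide receptors summed to 0.262 CPM ± 0.0955. The Ms4a family, used as receptors by a small set of OSNs, summed to 11.7 CPM ± 0.738. Other genes of those non-canonical neurons had 45.9 CPM ± 1.83 for Pde2a, 7.36 CPM ± 0.401 for the guanylyl cyclase Gucy2d and 0.705 CPM ± 0.0944 for the channel Cnga3. The list of 8 such genes summed to 60.9 CPM ± 2.47. Sweet and umami taste receptors (Tas1r) summed to 20.8, 21.9 and 20.3 CPM and bitter receptors (Tas2r) to 1.22 CPM ± 0.333, over 3 and 35 genes.

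Support and gland cells were strongly represented as well. The 8 sustentacular genes summed to 8424, 8809 and 8628 CPM, close in CPM to the sum of the 12 mature OSN genes. On the per-length scale these sums were 18572 ± 381 and 12070 ± 104. The enzymes Cyp2a5, Cbr2, Cyp2g1 and Sult1c1, which modify odorants and foreign compounds, led the sustentacular genes with per-length levels of 6293, 4872, 4287 and 1483. The 5 genes of Bowman's glands summed to 1721, 1671 and 1482 CPM, led on the per-length scale by Gpx6, a glutathione peroxidase of the olfactory mucosa, at 2706, with the water channel Aqp5 at 208, the mucin Muc5b at 111 and Dmbt1 at 77.1. Microvillous, tuft and ionocyte genes summed to 320 CPM ± 13.5, but Coch made up 73.9% of that. Ascl3, Foxi1 and Cftr, which mark ionocyte-like cells, had 19.8 CPM ± 2.84, 23.1 CPM ± 1.86 and 25.7 CPM ± 1.38, and the tuft cell factor Pou2f3 and channel Trpm5 had 7.51 CPM ± 0.863 and 6.61 CPM ± 0.804. Respiratory ciliated cells were seen through Foxj1, the factor of motile cilia, at 147 CPM ± 6.30, and their 8 genes summed to 596 CPM ± 40.1. On the per-length scale Foxj1 had 226, Dynlrb2 223, Rsph1 169 and Tmem212 145.

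The nasal gland secretory list had the highest mean summed CPM of all cell type lists, just above that of fibroblasts, and exceeded the fibroblast sum only in library 3. Its 14 genes in the table, antimicrobial Bpif proteins and odorant-binding lipocalins, summed to 12077, 11165 and 14457 CPM, a CV of 13.5%. Bpifa1, Bpifb9b, Bpifb4 and Bpifb3 led on the per-length scale with 9990, 3983, 3261 and 2326. Without Bpifa1 the list held 8739 CPM. On the per-length scale the gland list summed to 31854 ± 2933 and the fibroblast list to 6130 ± 421.

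**Figure D3:**
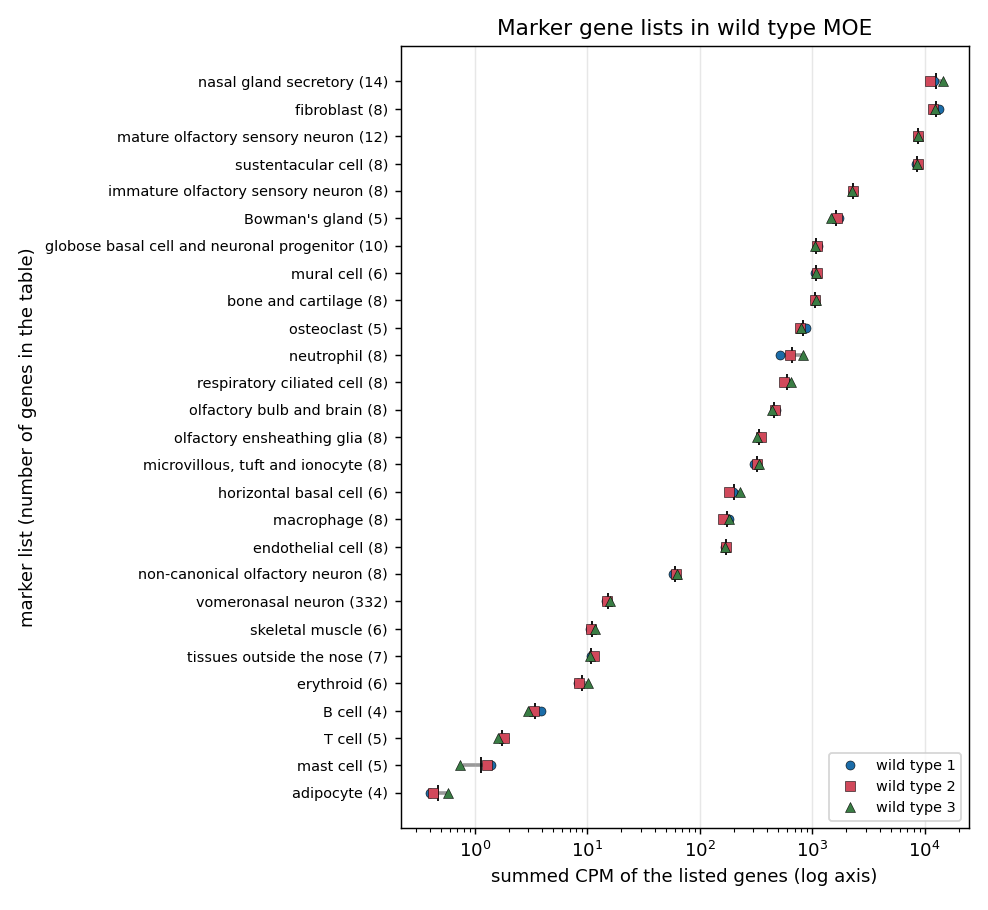
Summed CPM of each cell type list, on a log axis, with the number of its genes in the table in brackets; symbols are the 3 wild type libraries, ticks the means and grey bars 1 SD to either side. Sums of lists of different genes compare reads and not cell numbers; the neutrophil sum is 97.6% Ltf and the sum for olfactory bulb and brain is 93.3% Aqp4.

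Connective tissue, vessels and bone were represented outside the epithelium. The 8 fibroblast genes summed to 13424, 11756 and 12296 CPM, of which Col1a2 and Col1a1, also the main collagens of bone, held 6044 and 4664 CPM, with per-length levels of 2866 for Col1a1, 1962 for Col1a2, 389 for Col3a1 and 385 for the proteoglycan Lum. Mural cells of vessels summed to 1076 CPM ± 17.4, led on the per-length scale by Acta2, smooth muscle actin, at 476, Rgs5 at 405 and Tagln at 343, with Pdgfrb at 59.6. The 8 endothelial genes summed to 170 CPM ± 0.682, a CV of 0.402%, which is smaller than the counting error. Their per-length levels included 116.5 for Cldn5, 29.9 for Egfl7, 23.9 for Cdh5 and 18.6 for Pecam1. Olfactory ensheathing glia, which wrap OSN axons, summed to 340 CPM ± 14.9, and on the per-length scale Fabp7 had 448, S100b 81.7 and Sox10 54.2. The 8 genes of the bone and cartilage list summed to 1063 CPM ± 17.7. Bone was plainly present, with per-length levels of 1141 for Ibsp, 357 for Bglap, 270.5 for Dmp1 and 128 for Alpl. Cartilage genes were lower, at 29.2 CPM ± 1.11 for Col2a1 and 0.0856 CPM for Matn1, under the level of 3 reads. Osteoclast genes summed to 822 CPM ± 50.6, of which the enzymes Ctsk and Acp5 held 441 CPM ± 24.4 and 371 CPM ± 27.9, while the fusion proteins Dcstamp and Ocstamp had 5.80 CPM ± 0.192 and 4.04 CPM ± 0.171.

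Immune and blood genes were low. Macrophage genes summed to 175 CPM ± 10.5, with per-length levels of 148 for Lyz2, 56.1 for Cd68, 49.6 for C1qa and 45.4 for C1qb. The neutrophil list summed to 522, 628 and 821 CPM, but Ltf, lactoferrin, which glands also secrete, held 97.6% of it, and S100a9, S100a8 and Ngp had 9.30, 4.40 and 1.02 CPM. B cell, T cell and mast cell lists summed to 3.40, 1.73 and 1.14 CPM. Erythroid cells could not be judged from globin, since all 6 adult globin rows were listed at 0, Hba-a1 and Hbb-bs included. Alas2, the first enzyme of erythroid haem synthesis, had 8.50 CPM ± 0.919.

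Genes of neighbouring or distant tissues served as a check on the dissection. The list for olfactory bulb and brain summed to 460 CPM ± 19.9, of which Aqp4, a water channel that epithelial cells of the MOE also carry, held 429 CPM ± 19.6. Gad2 had 22.8 CPM ± 1.26, while Slc17a7, Tbr1, Gfap and Gad1 had 1.66, 2.23, 2.76 and 0.701 CPM, Tbx21, a factor of mitral and tufted cells, had 0.340 CPM and the myelin gene Mog 0.0935 CPM. Skeletal muscle genes summed to 11.0 CPM ± 0.667, most of it from Ttn, adipocyte genes to 0.471 CPM ± 0.0980, and genes of liver, pancreas, testis and eye to 10.9 CPM ± 0.470. Ins2, Prm2 and Lep had 0 reads.

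Genes that report on the state of the animal at sampling had list sums close between libraries, but as sets of single genes they were less even than the whole table. Their biological coefficient of variation, the spread left after counting noise is taken out, was 9.69% for immediate early, 8.71% for circadian and 18.5% for glucocorticoid-responsive genes, against 5.07% over all genes. Leaving out each library in turn gave 7.34 to 13.3%, 5.75 to 11.9% and 9.29 to 24.0%. This measure was higher at low levels. For genes other than OR genes it was 9.99% at 3 to 10 CPM and 6.21% at 10 to 30 CPM. At 30 to 100 CPM it was 3.85% and at 100 CPM or more 4.86%. The median genes of the lists, in the same order, had 17.1, 55.5 and 57.1 CPM. The 8 immediate early genes, which neurons switch on with activity or stress, summed to 148, 158 and 137 CPM, with 48.0 CPM ± 5.70 for Nr4a1, 28.8 CPM ± 0.627 for Ier2, 23.5 CPM ± 2.42 for Junb, 22.5 CPM ± 3.02 for Egr1, 11.7 CPM ± 0.795 for Fos, 6.42 CPM ± 0.810 for Arc, 5.21 CPM ± 0.976 for Npas4 and 1.74 CPM ± 0.0242 for Fosb. The 8 circadian genes summed to 461, 449 and 473 CPM. Per1 had 105.8 CPM ± 15.4, Per2 104.6 CPM ± 6.76, Per3 66.2 CPM ± 2.39, Nr1d2 92.2 CPM ± 1.93, Nr1d1 44.9 CPM ± 5.14, Dbp 16.7 CPM ± 1.15, Arntl 26.6 CPM ± 2.50 and Ciart 4.30 CPM ± 0.748. The 5 glucocorticoid-responsive genes summed to 236, 263 and 262 CPM, with 88.4 CPM ± 9.05 for Tsc22d3, 86.9 CPM ± 4.04 for Sgk1, 57.1 CPM ± 3.84 for Fkbp5 and 10.4 CPM ± 0.962 for Hif3a. Zbtb16, the fifth of them, was the least even gene of these lists, at 8.74, 15.8 and 7.23 CPM, and next came Npas4, Ciart and Per1 with CVs of 18.7, 17.4 and 14.6%.

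The spread between the 3 libraries was small for most genes and fell with abundance up to 1000 CPM. Among the 11614 genes with a mean of at least 10 CPM the median CV was 3.76%, where counting alone would give a median of 2.19%. The median CV was 16.9% at 1 to 3 CPM, 9.80% at 3 to 10 CPM, 5.66% at 10 to 30 CPM, 3.56% at 30 to 100 CPM and 2.54% at 100 to 1000 CPM, and counting alone would give 11.9, 6.65, 3.70, 2.16 and 1.19%. At 1000 CPM or more, for 42 genes, the median CV was higher again at 3.16%, and counting alone would give 0.384%. Only 64 of the 11614 genes, or 0.551%, had a CV above 20%. The biological coefficient of variation of 5.07% was computed over 18957 genes with at least 10 reads over the 3 libraries. The 10 genes with the smallest CV were Nup205, Hsf1, Mga, Anks1, Epcam, Larp4, Ankra2, Ciz1, Rab5c and Oxsm, of which the epithelial adhesion protein Epcam had 326, 326 and 327 CPM and the nuclear pore protein Nup205 72.2 to 72.3 CPM. Their CVs, 0.0366 to 0.140%, were below the medians that counting alone would give at their levels. They are the low end of 11614 values and do not mark these genes as more stable than others.

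**Figure D4:**
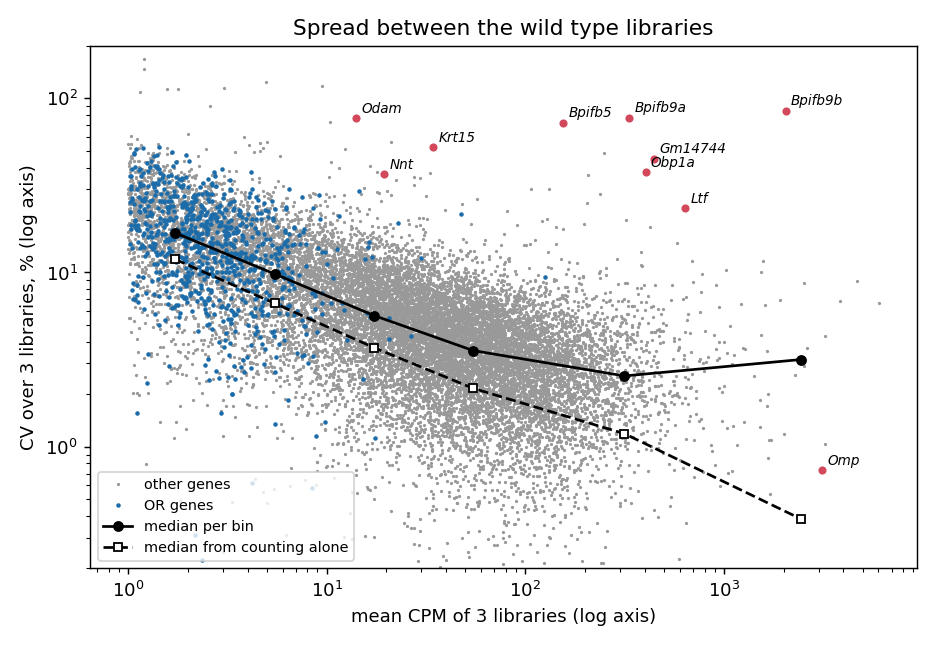
CV over the 3 libraries against mean CPM for genes at a mean of 1 CPM or more, both on log axes, with OR genes in blue; the solid line joins the median of each abundance bin and the dashed line the median that counting alone would give. OR genes lie in the cloud of other genes of like abundance, and the named genes in red stand above it, Bpifb9b the farthest among abundant genes, while Omp lies below it.

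OR genes as a family had a higher biological coefficient of variation than the whole table, 13.0% over 1074 genes, but they are also less abundant. At 1 to 3 CPM it was 14.8% for 490 OR genes and 15.7% for 1461 other genes, and at 3 to 10 CPM 10.4% for 319 OR genes and 9.99% for 2272 others. At 10 to 30 CPM the 22 OR genes had 10.9% and 3755 other genes 6.21%. That last difference rested on library 1: without it the values were 4.95% and 7.26%. Between pairs of libraries the levels of the 833 OR genes at 1 CPM or more correlated with a Pearson's r of 0.918 to 0.936 across genes on the log2(CPM + 0.5) scale, and those of 15323 other genes with 0.995 to 0.997. Genes are not independent replicates, and the other genes cover a wider range of levels.

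Among the 20 genes with the largest CV of the 11614, sets of genes for Bpif proteins and lipocalins, both secreted, moved together. These sets were formed after the values were seen. Bpifb9b, Bpifb9a and Bpifb5, neighbours between 154223742 and 154320646 on chromosome 2 (GRCm38), were lowest in library 2 and highest in library 3, with 1334, 779 and 4032 CPM, 249, 127 and 621 CPM, and 117, 66.5 and 282 CPM in turn. Their sum differed 5.07-fold between libraries 2 and 3. Other Bpif genes of the same chromosome were far more even: Bpifa1 had 3586, 4108 and 3788 CPM, Bpifb4 2715, 2580 and 2287 CPM, Bpifb3 1073, 1031 and 1137 CPM, Bpifb6 990.1, 976 and 879 CPM, and Bpifb1, the next gene to Bpifb5, 37.4, 37.4 and 35.5 CPM. Odam and Cabs1, neighbours on chromosome 5 and at much lower levels, showed the same order of libraries as Bpifb9b, with 8.66, 6.99 and 26.4 CPM and 6.61, 5.45 and 19.3 CPM.

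A second set was lowest in library 2 and highest in library 1. It held the odorant-binding protein genes of chromosome X between 77864758 and 78245921 (GRCm38), which encode small lipocalins secreted into nasal mucus. Gm14744 had 628, 231 and 473 CPM, Obp1a 563, 260.1 and 388 CPM, 5430402E10Rik 356, 118 and 271 CPM and Gm14743 43.97, 19.6 and 35.4 CPM. The 4 genes summed to 1590, 628 and 1168 CPM, a 2.53-fold range. Lipocalins of other chromosomes did the same: Lcn11 on chromosome 2 had 264, 122 and 238 CPM, and Mup4 and Mup5 on chromosome 4 had 31.1, 8.09 and 24.2 CPM and 37.1, 17.5 and 28.4 CPM. Obp2a, Obp2b and Lcn3, close to Lcn11 on chromosome 2, were instead lowest in library 3, with 499, 427 and 345 CPM, 367, 348 and 248 CPM, and 262, 289 and 161 CPM. Of the 20 Mup rows, 15 were listed at 0.

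**Figure D5:**
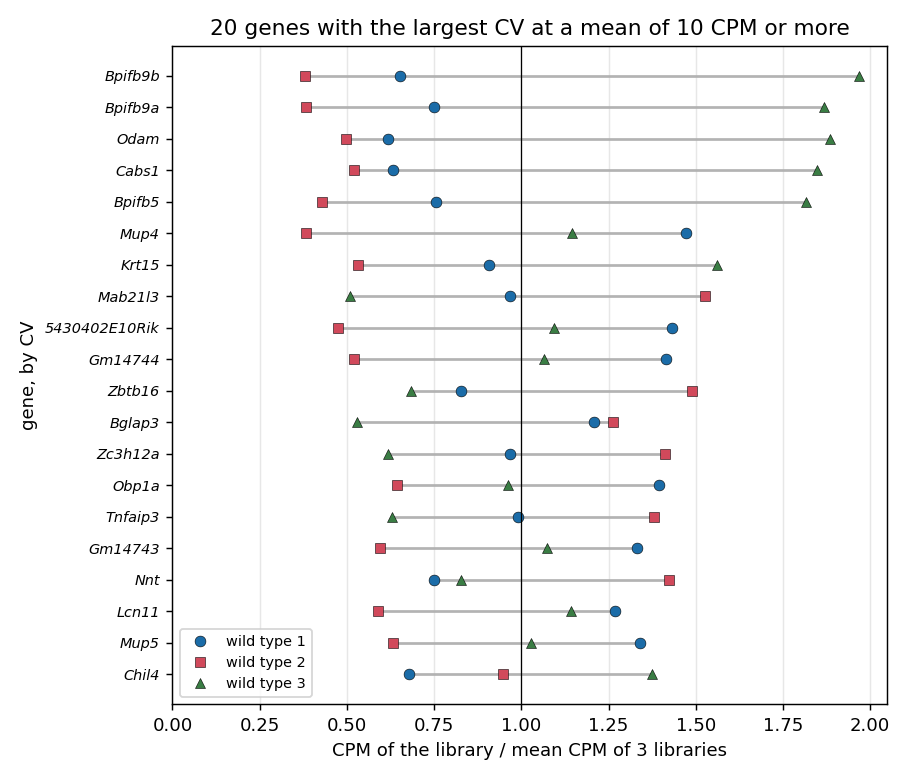
The 20 genes with the largest CV among genes at a mean of 10 CPM or more; each symbol is 1 wild type library, placed at its CPM divided by the mean of the 3 libraries, and the vertical line marks that mean. The Bpif genes, Odam and Cabs1 are highest in library 3 at over 1.8 times the mean, and the odorant-binding protein, Lcn11 and Mup genes are lowest in library 2.

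The promoters of 11 of these genes are shown because the genes moved together across the libraries, and that of Mup5 is not shown. Each runs 5′ to 3′ along its gene from 80 bases before to 20 after the RefSeq start (GRCm38.p6), with the word TATAAA in capitals where it occurs. The coordinates are chr2:154307164-154307263 (plus) for Bpifb9b, chr2:154257799-154257898 (plus) for Bpifb9a, chr2:154223662-154223761 (plus) for Bpifb5, chrX:78091355-78091454 (minus) for Obp1a, chrX:78245902-78246001 (minus) for Gm14743, chrX:77864678-77864777 (plus) for Gm14744, chrX:77925043-77925142 (minus) for 5430402E10Rik, chr4:59960648-59960747 (minus) for Mup4, chr5:87884930-87885029 (plus) for Odam, chr5:87979371-87979470 (plus) for Cabs1 and chr2:25776937-25777036 (plus) for Lcn11.
Bpifb9b: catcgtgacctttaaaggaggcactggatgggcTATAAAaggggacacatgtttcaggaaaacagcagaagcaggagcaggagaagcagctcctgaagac
Bpifb9a: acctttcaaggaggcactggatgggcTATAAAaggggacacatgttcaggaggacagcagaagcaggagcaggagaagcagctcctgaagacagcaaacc
Bpifb5: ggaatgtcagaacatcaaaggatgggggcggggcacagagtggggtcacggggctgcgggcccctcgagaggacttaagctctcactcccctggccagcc
Obp1a: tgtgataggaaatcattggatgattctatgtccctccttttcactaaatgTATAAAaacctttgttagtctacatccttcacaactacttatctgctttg
Gm14743: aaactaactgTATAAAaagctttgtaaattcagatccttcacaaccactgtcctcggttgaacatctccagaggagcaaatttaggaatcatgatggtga
Gm14744: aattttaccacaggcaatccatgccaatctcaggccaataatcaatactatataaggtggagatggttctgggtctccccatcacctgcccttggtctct
5430402E10Rik: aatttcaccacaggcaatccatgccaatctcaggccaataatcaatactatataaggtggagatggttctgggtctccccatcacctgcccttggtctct
Mup4: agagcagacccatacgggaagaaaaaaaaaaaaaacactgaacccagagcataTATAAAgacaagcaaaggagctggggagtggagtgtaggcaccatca
Odam: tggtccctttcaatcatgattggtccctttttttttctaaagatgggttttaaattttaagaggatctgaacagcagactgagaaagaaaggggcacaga
Cabs1: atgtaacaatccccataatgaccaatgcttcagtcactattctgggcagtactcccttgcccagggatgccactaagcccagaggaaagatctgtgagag
Lcn11: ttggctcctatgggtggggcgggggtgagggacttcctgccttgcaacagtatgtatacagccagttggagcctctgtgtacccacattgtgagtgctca

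Bpifb9b and Bpifb9a shared an unbroken run of 39 bases in these windows, and their TATAAA began 47 and 54 bases before the start. Gm14744 and 5430402E10Rik were identical at 99 of 100 positions of these windows. Their exons were not compared, so whether their counts are split or lost between them is not known. Obp1a and Gm14743 shared a run of 12 bases, with TATAAA 30 and 70 bases before the start. TATAAA was in 5 of the 11 windows. Bpifb5, Odam and Cabs1 had the same order of libraries as Bpifb9b and no TATAAA in their windows. Gm14744, 5430402E10Rik and Lcn11 had no TATAAA either. Only this exact word was marked, and Gm14744 and 5430402E10Rik hold tataag, which differs from it in the last letter. In the whole promoters, TATAAA on either strand was in 31.0% of 58 promoters of genes with a CV above 20%, 7.001% of 11841 promoters of other genes at 10 CPM or more and 13.6% of all promoters. The median promoter of these groups was 48.2, 38.7 and 47.3% A and T. The 58 promoters belong to 47 genes. Shares at a like content of A and T were not computed for these groups.

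The rest of the 20 genes with the largest CV were single genes of other kinds. Krt15, a basal keratin, had 31.3, 18.3 and 53.9 CPM. Tnfaip3 and Zc3h12a, which restrain inflammatory signalling, had 17.7, 24.7 and 11.3 CPM and 11.2, 16.3 and 7.15 CPM, highest in library 2 and lowest in library 3. Mab21l3 had the same order of libraries, at 11.9, 18.8 and 6.26 CPM. Bglap3, an osteocalcin family gene, had 19.96, 20.9 and 8.74 CPM, Chil4, a secreted chitinase-like protein, 6.97, 9.75 and 14.1 CPM, and Nnt, a mitochondrial proton-pumping enzyme, 14.6, 27.8 and 16.2 CPM. Among the 64 genes with a CV above 20%, library 3 was the highest for 29, library 2 for 19 and library 1 for 16, and among all 11614 genes the numbers were 4196, 3863 and 3555.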

How the data were processed

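Whole MOE RNA was made into polyA-selected, strand-specific libraries. The authors mapped reads to mm10 with HISAT2 (2.1.0) and deposited raw counts per gene. The study names featureCounts as the counter and the submitters' notes HTSeq (0.6.1p1). The annotation and strand setting are not given in the sources used here, so reads of overlapping or antisense genes may not be told apart. The 3 wild type columns were used, the summary rows left out and the normalized table not used.

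CPM used the reads in genes as library size. Lengths and coordinates came from GENCODE M21 (GRCm38), matched by symbol or RefSeq synonym for 24002 of 24421 rows, with 99.4% of the reads. The biological coefficient of variation was the common dispersion of edgeR 4.0.16 in R 4.3.3, with TMM factors, for gene sets with at least 10 reads; it was tested on simulated data, as was the CV. Other values were computed in Python 3.11.15. No hypothesis was tested. Members and lists were chosen with earlier results of these data known. Genes were named as the 30 highest in CPM and 10 per length, the 10 highest OR and 5 highest vomeronasal receptor genes, the Taar genes, the 20 largest and 10 smallest CVs among genes at 10 CPM, all members of the neuronal and state lists, and up to 4 members of other lists, highest per length. Other named genes, the sets that moved together and those in the closing observations were chosen after their values were seen. Alternatives were other scalings, detection limits, protein-coding genes, lengths and leaving out each library. A few genes that this rule names are not reported here.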

Additional observations from a re-analysis of the deposited data

How the results depend on the processing

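Most values moved by less than 1 SD between the libraries, or counts by less than 1.5 times, under TMM effective library sizes, DESeq2 size factors and the other limits tried. The exception among the main results was the share of reads in OR genes, which was 0.308% with protein-coding genes only. Leaving out each library in turn gave a biological coefficient of variation of 4.27 to 5.72% and an OR share of 0.312 to 0.319%. OR genes detected numbered 1101 with 1 read in any library and 981 with 10 reads in each, and 28 of the 30 leading genes per length were the same when the longest transcript replaced the exon union. A denominator without mitochondrial genes was not run, since the table has none. No paired analysis was possible because no result comes from a test between groups. With 3 libraries an SD is itself imprecise, and depth limits the values of genes under about 1 CPM.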

Other observations

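Enzyme families with members in foreign compound metabolism were grouped by symbol after their values were seen. Cytochrome P450 rows summed to 7482, 7848 and 7440 CPM, or 0.759% ± 0.0225 (SD, n = 3) of all reads, and 38 of them reached 1 CPM. Cyp2a5, Cyp2g1 and Cyp2f2, all within chromosome 7, had 3234, 2280 and 1044 CPM, against 0.315% of reads for all OR genes. Conjugating enzymes followed, with 1317 CPM ± 50.6 for glutathione S-transferases, 1201 CPM ± 31.0 for sulfotransferases and 727 CPM ± 37.5 for UDP-glucuronosyltransferases, of which Ugt2a1 had 658 CPM ± 38.1. Aldehyde dehydrogenases summed to 1520 CPM ± 25.5. The 45 collagen rows summed to 15628 CPM ± 933, or 1.56% of all reads.

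Below 10 CPM, the genes with the widest spread included inflammatory mediators and keratins of squamous epithelium, also singled out after their values were seen. The chemokine Ccl20 had 4.65, 22.4 and 1.55 CPM in libraries 1, 2 and 3, Cxcl1 2.81, 11.9 and 0.194 CPM and Cxcl2 2.004, 6.99 and 0.194 CPM, and the cytokine Il6 0.481, 3.62 and 0.622 CPM. Some genes known to respond to NF-kappa-B had a like order with smaller ranges: Tnfaip2 100.3, 142 and 78.8 CPM, Nfkb2 17.2, 19.98 and 13.7 CPM and Relb 8.66, 12.8 and 8.66 CPM. Other such genes were also highest in library 2 but had narrower ranges. They had 41.0, 44.4 and 39.6 CPM for Nfkbia, 49.9, 53.4 and 48.5 CPM for Nfkb1, 13.8, 14.1 and 11.3 CPM for Birc3 and 4.49, 5.73 and 5.09 CPM for Nfkbie. Icam1, another such gene, was highest in library 1, at 14.6, 13.9 and 8.35 CPM. These genes were in part picked for an order with library 2 highest. Library 3 was instead the highest for Krt6b, at 0.0802, 0 and 3.54 CPM, Krt13, at 0.361, 0 and 3.26 CPM, Krt6a, at 2.97, 0.0919 and 4.74 CPM, and Krt4, at 3.77, 1.56 and 6.18 CPM. The sums of the mature OSN list differed by 1.01-fold between the same libraries. What sets these differences was not tested.

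Nnt, which carries a known deletion in the C57BL/6J strain, had 365, 906 and 416 reads in libraries 1, 2 and 3. Wdfy1 had 107, 111 and 178 CPM. The genotype of the mice at these genes was not tested.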
